A study of Homo sapiens with 6 samples.

Results

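The genes described here encode the oxygen-sensing machinery of the cell: the alpha and beta subunits of the hypoxia-inducible factors (HIFs), the dioxygenases that hydroxylate the alpha subunits, and the von Hippel-Lindau protein that marks them for destruction. The members were chosen by function and by gene symbol, at a time when earlier results of these data were known, and all 9 were found among the 58735 genes of the table: HIF1A, EPAS1, ARNT, ARNT2, EGLN1, EGLN2, EGLN3, HIF1AN and VHL. They were measured by RNA-seq in HCT116SCs, stem-like cells of the HCT116 colorectal cancer line that were sorted as CD44+CD326+ and grown without serum as tumor spheres, with EGF, bFGF and B27. Dissociated spheres were transfected with a liposomal reagent and either a negative control siRNA (NC, n = 3) or an siRNA against PSCA (siPSCA, n = 3), and were harvested 48 h later. Both groups therefore carried an siRNA, the genotype was labelled WT in both, and the sources used here do not state which of the listed PSCA siRNA sequences went into the sequenced cells. HCT116 is a single established line. Nothing in the labels says that libraries of a group came from separate cultures, so the p-values below measure the spread between these libraries, which may be technical. The titles of siPSCA 2 and siPSCA 3 begin with HCT117 and HCT118, whereas their other labels name HCT116.

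HIF transcription factors are heterodimers of an oxygen-labile alpha subunit (HIF1A or EPAS1) and a constitutive beta subunit (ARNT or ARNT2). When oxygen is present, the prolyl hydroxylases EGLN1, EGLN2 and EGLN3 use oxygen, iron and 2-oxoglutarate to hydroxylate prolines of the alpha subunit, which VHL then recognises as the substrate receptor of a ubiquitin ligase. HIF1AN, also called factor inhibiting HIF, hydroxylates an asparagine and thereby blocks the binding of coactivators. EGLN1 and EGLN3 are themselves well-known HIF-responsive genes, so that the pathway contains a feedback arm, and most of its control over the alpha subunits lies in protein stability, which RNA does not measure.

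HIF dimers bind the core of the hypoxia response element, ACGTG or GCGTG. RefSeq promoter windows of GRCh38.p14, 250 bases ending just before an annotated start, were at hand for 7 of the 9 members (ARNT2 and VHL had no entry) and are shown for the 3 EGLN genes and HIF1A, because the EGLN genes are the feedback arm and HIF1A the main alpha subunit. Capitals mark each ACGTG or GCGTG on either strand (CACGT or CACGC when read on the strand shown), and all are written 5′ to 3′ on the strand of the gene. The windows are chr1:231422288-231422537 (minus strand) for EGLN1, chr14:33951075-33951324 (minus strand) for EGLN3, chr19:40798941-40799190 (plus strand) for EGLN2 and chr14:61695263-61695512 (plus strand) for HIF1A.
EGLN1: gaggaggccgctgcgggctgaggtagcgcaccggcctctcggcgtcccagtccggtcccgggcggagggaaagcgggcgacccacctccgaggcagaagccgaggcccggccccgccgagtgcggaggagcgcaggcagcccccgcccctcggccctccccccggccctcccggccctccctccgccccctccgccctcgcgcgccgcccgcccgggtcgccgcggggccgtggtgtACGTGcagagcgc
EGLN3: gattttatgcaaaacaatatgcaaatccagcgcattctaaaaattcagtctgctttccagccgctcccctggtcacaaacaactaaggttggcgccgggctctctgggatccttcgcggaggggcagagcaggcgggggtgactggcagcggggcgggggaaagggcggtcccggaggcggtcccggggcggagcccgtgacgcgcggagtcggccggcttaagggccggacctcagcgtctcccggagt
EGLN2: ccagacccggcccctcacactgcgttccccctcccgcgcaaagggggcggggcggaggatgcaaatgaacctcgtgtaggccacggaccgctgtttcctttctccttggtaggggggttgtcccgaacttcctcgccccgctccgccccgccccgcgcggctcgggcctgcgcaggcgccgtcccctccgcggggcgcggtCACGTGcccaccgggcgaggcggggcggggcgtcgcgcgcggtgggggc
HIF1A: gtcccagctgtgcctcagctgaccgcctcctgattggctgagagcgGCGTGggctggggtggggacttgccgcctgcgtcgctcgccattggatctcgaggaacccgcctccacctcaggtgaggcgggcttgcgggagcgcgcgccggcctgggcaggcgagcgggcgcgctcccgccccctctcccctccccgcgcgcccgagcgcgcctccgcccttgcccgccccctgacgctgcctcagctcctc

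The match in EGLN1 began 13 bases before the start, that in HIF1A 204 bases before it, and that in EGLN2 49 bases before it, where ACGTG and its reverse complement overlapped in CACGTG, which is also the E-box bound by other basic helix-loop-helix factors. EPAS1 held GCGTG 117 bases before its start. The windows of ARNT, HIF1AN and EGLN3, and a second window each of HIF1A and EGLN2 at another annotated start, held none of these letters. Of 35116 RefSeq windows of the same length, 18.5% held ACGTG, 32.2% held GCGTG and 43.2% held at least one of them, so matches in 4 of the members' 9 windows lie near that share and are a description of the sequence and not of binding. The GC content of these windows was 81.2% for EGLN1, 76.0% for EGLN2, 75.6% for HIF1A and 64.0% for EGLN3, beside a median of 58.0% over all windows.

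Library totals ranged from 16803235 to 18218661 reads, and 94.36% to 96.96% of these lay on genes. PSCA, the targeted gene, had 4, 12 and 15 reads in NC and 9, 9 and 7 in siPSCA, so at this depth the labels could not be checked by its level. Within groups, the chi-square between libraries averaged 2.31 to 3.78 per gene for pairs without NC 3 and 16.6 to 20.6 for the pairs with it, where sampling noise alone gives about 1, and NC 3 thus stood apart from its group. The sort markers CD44 and EPCAM (CD326) summed to an FPKM of 175.8 to 210.4 in NC and 154.4 to 156.9 in siPSCA. CD44 stood at 73.5% of its NC mean in siPSCA with no overlap between the groups, and EPCAM at 88.7% with overlap. Of 7 colorectal epithelial markers 5 reached a mean FPKM of 1, but CDX1 was at 0 in every library and VIL1 had at most 5 reads. The 12 markers of blood, endothelial, stromal, muscle and liver cells summed to 5.03 to 7.51 in NC and 8.14 to 8.45 in siPSCA, with CD3E and CD68 at 0 and only COL1A1 and DES reaching a mean of 1. The part of these shifts in the results was not tested, and in bulk RNA a change in the kinds of cells and a change in RNA per cell cannot be told apart.

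Between the groups, EGLN1 and EGLN3 transcripts fell to 50.5% and 42.0% of their NC level, ARNT fell to 79.95%, and ARNT2 rose to 153%. HIF1A, HIF1AN and VHL did not pass the test, EPAS1 missed it narrowly, and EGLN2 lay under the expression minimum. Values are FPKM, fragments scaled to the exonic length of the gene and the size of the library, and each fold change is siPSCA minus NC on the log2(FPKM + 1) scale with its standard error (SE) and its p from limma, adjusted over the 13796 genes whose mean FPKM was 1 or more. Of the 8 members tested, 4 passed an adjusted p of 0.05, 1 higher and 3 lower. The background was high: 50.7% of all genes tested passed, 26.6% higher and 24.2% lower, so the members' count of calls is close to that of genes in general. The groups did not overlap for 6 of the 8 tested members, beside 64.5% of all genes tested. EGLN1 and EGLN3 had the largest changes of the tested members, and 2.6% and 2.7% of all tested genes had a lower fold change.

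**Figure D1:**
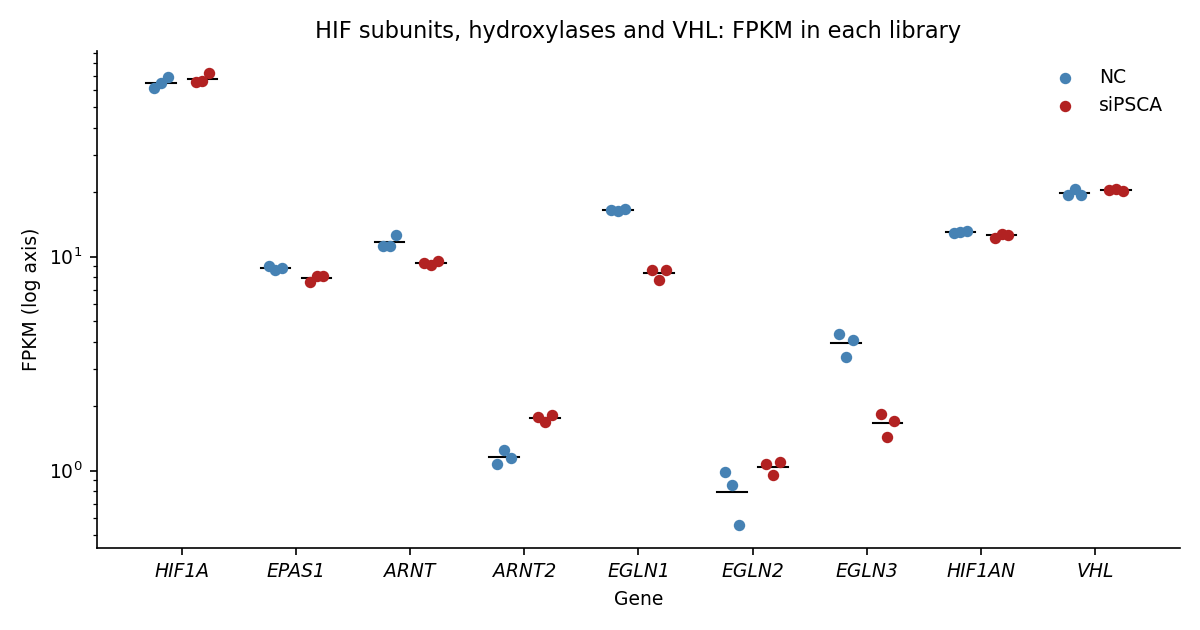
FPKM of the 9 members (log axis) in each of the 6 libraries, with NC in blue, siPSCA in red and black bars for the group means (n = 3). HIF1A lies highest at 61.6 to 71.9 and EGLN2 lowest at 0.556 to 1.09, and the groups are clearly apart for EGLN1 and EGLN3, lower in siPSCA, and for ARNT2, higher in siPSCA.

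The alpha subunits carried most of the transcript of the set. HIF1A (ENSG00000100644, chr14:61695513-61748259, plus strand, 5151 exonic bases) encodes HIF-1 alpha. Its FPKM was 61.6, 64.5 and 69.1 in NC and 65.8, 66.1 and 71.9 in siPSCA. The groups overlapped, with means of 65.1 ± 3.75 and 67.9 ± 3.47 (SD, n = 3), and the fold change was 0.06 (SE 0.06, 95% interval -0.09 to 0.21, adjusted p = 0.447 from limma). This interval leaves room for neither a fall nor a rise of the size seen in EGLN1, but it belongs to the values as deposited. Fold changes of all genes followed base composition (Spearman's rho of 0.664 with GC content across 13792 genes, which are not independent replicates), and the exons of HIF1A had the lowest GC content of the members, 36.4% against a median of 48.1% over tested genes. With the trend on GC content and length removed from each library, the fold change of HIF1A was 0.40 (SE 0.04, adjusted p = 0.000851 from limma), so whether its transcript rose depends on that step.

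EPAS1 (ENSG00000116016, chr2:46293667-46386703, plus strand, 7302 exonic bases) encodes HIF-2 alpha. It was measured at 9.01, 8.71 and 8.90 in NC and at 7.58, 8.08 and 8.11 in siPSCA. Every siPSCA library lay under every NC library. The mean went from 8.87 ± 0.152 to 7.93 ± 0.296, a fold change of -0.15 (SE 0.05, 95% interval -0.27 to -0.02, adjusted p = 0.0530 from limma), just over the threshold, and 3 alternatives brought it under: -0.28 (adjusted p = 0.00594) without the GC and length trend, -0.20 (adjusted p = 0.0390) with equal library medians and -0.18 (adjusted p = 0.0384) with limma-voom on reads. HIF1A made up 88.0% ± 0.678 of the summed FPKM of HIF1A and EPAS1 in NC and 89.5% ± 0.398 in siPSCA (exact permutation test, two-sided p = 0.1, the smallest that 3 libraries against 3 can give). HIF3A, the remaining alpha gene, had 2 to 16 reads per library.

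An antisense gene in the HIF1A locus changed far more than HIF1A. HIF1A-AS2 (ENSG00000258667, chr14:61715558-61751097, minus strand) is a lincRNA whose 533 exonic bases share none with the exons of HIF1A and lie partly in its introns and beyond its end. It had 37, 26 and 32 reads in NC and 4, 2 and 7 in siPSCA, which corresponds to an FPKM of 3.47 ± 0.665 and 0.459 ± 0.255. The groups were far apart: siPSCA was at 13.2% of NC, with a fold change of -1.62 (SE 0.17, adjusted p = 0.00136 from limma) and -1.49 with the GC trend removed. It passed the minimum of a mean FPKM of 1 only through the NC libraries, so that any such gene had to differ, and the p carries that limit. The count took no account of strand as far as the table shows, since of 710 genes whose exons lie wholly under exons of the opposite strand 0 had a read, against 53.0% of the 41758 genes that share no exonic base. Reads of HIF1A-AS2 and reads from HIF1A introns therefore cannot be told apart. HIF1A-AS1, which overlaps the start of HIF1A, had 0 to 4 reads per library.

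The beta subunits moved in opposite directions. ARNT (ENSG00000143437, chr1:150809705-150876768, minus strand, 6516 exonic bases), the common partner of the HIF alpha subunits and of the aryl hydrocarbon receptor, had an FPKM of 11.3, 11.3 and 12.6 in NC and of 9.33, 9.18 and 9.55 in siPSCA. All siPSCA libraries lay under all NC libraries. The mean fell from 11.7 ± 0.753 to 9.36 ± 0.187, a fold change of -0.29 (SE 0.06, adjusted p = 0.00892 from limma), and ARNT passed in each of the 12 alternatives run, from -0.34 to -0.24.

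ARNT2 (ENSG00000172379, chr15:80404350-80597937, plus strand, 7741 exonic bases), its paralog best known from neural tissue, was measured at 1.07, 1.25 and 1.15 in NC and at 1.78, 1.69 and 1.82 in siPSCA. These values rest on 139 to 168 reads in NC and 233 to 257 in siPSCA, with no overlap between the groups. The mean rose from 1.15 ± 0.0890 to 1.77 ± 0.0655 (0.36, SE 0.08, adjusted p = 0.0142 from limma). The fold change was 0.57 with a pseudocount of 0.1, 0.59 with limma-voom on reads and 0.26 (adjusted p = 0.0493) with the GC and length trend removed. The call was lost without siPSCA 1 (0.36, adjusted p = 0.0535) or without siPSCA 3 (0.35, adjusted p = 0.0518). ARNT made up 91.0% ± 0.856 of the summed beta FPKM in NC and 84.1% ± 0.253 in siPSCA (exact permutation test, two-sided p = 0.1), and the sum itself went from 12.9 ± 0.750 to 11.1 ± 0.251 (exact p = 0.1).

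Among the prolyl hydroxylases, EGLN1 (PHD2, ENSG00000135766, chr1:231363751-231425044, minus strand, 7265 exonic bases) is the main oxygen sensor in most cells. Its FPKM was 16.6, 16.3 and 16.7 in NC and 8.63, 7.75 and 8.67 in siPSCA. The NC libraries lay close together, and the lowest of them was far above the highest siPSCA library. The mean fell from 16.5 ± 0.183 to 8.35 ± 0.525, a fold change of -0.91 (SE 0.06, 95% interval -1.05 to -0.77, adjusted p = 0.000392 from limma), with -0.77 once the GC and length trend was removed and a range of -1.0046 to -0.77 over 12 alternatives. Its promoter window, shown above, held ACGTG, as did that of EGLN2, whereas the window of EGLN3 held no match. A link between these matches and the levels was not tested. The windows of EGLN1 and EGLN3 lie wholly within the annotated spans of these genes, and which start the cells used was not tested.

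EGLN3 (PHD3, ENSG00000129521, chr14:33924231-34462774, minus strand, 7359 exonic bases) is the isoform most often reported as hypoxia-inducible. It was measured at 4.38, 3.40 and 4.10 in NC and at 1.84, 1.44 and 1.72 in siPSCA. Every siPSCA library was again under every NC library. The mean fell from 3.96 ± 0.502 to 1.66 ± 0.206 (-0.89, SE 0.10, 95% interval -1.15 to -0.64, adjusted p = 0.00170 from limma). On this scale the fold change of a low gene is understated, and with a pseudocount of 0.1 it was -1.20. SPTSSA, a serine palmitoyltransferase subunit that lies within the long span of EGLN3 with no shared exonic base, fell from 25.0 ± 2.35 to 15.95 ± 1.13 (-0.61, SE 0.08, adjusted p = 0.00263 from limma). With the GC and length trend removed, EGLN3 stood at -0.92 and SPTSSA at -0.35 (adjusted p = 0.00128 and 0.00475 from limma).

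EGLN2 (PHD1, ENSG00000269858, chr19:40798996-40808433, plus strand, 6577 exonic bases) was the lowest member. It had an FPKM of 0.986, 0.856 and 0.556 in NC and of 1.08, 0.958 and 1.09 in siPSCA, from 63 to 131 reads. NC 3 was the lowest library, and the groups overlapped. When the model was fitted to all 34391 genes that had a read, the fold change was 0.19 (SE 0.13, adjusted p = 0.424 from limma), and it was 0.09 (SE 0.09) without NC 3, so its size depends on that library. The level itself is uncertain, because 2012 of its exonic bases also belong to the readthrough gene RAB4B-EGLN2, which was at 0 in every library, and 69.4% of its exonic bases are free of other genes. Genes wholly covered by others of the same strand had a read in 3.37% of 1008 cases, and reads on shared exons may therefore be missing from the level of EGLN2.

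**Figure D2:**
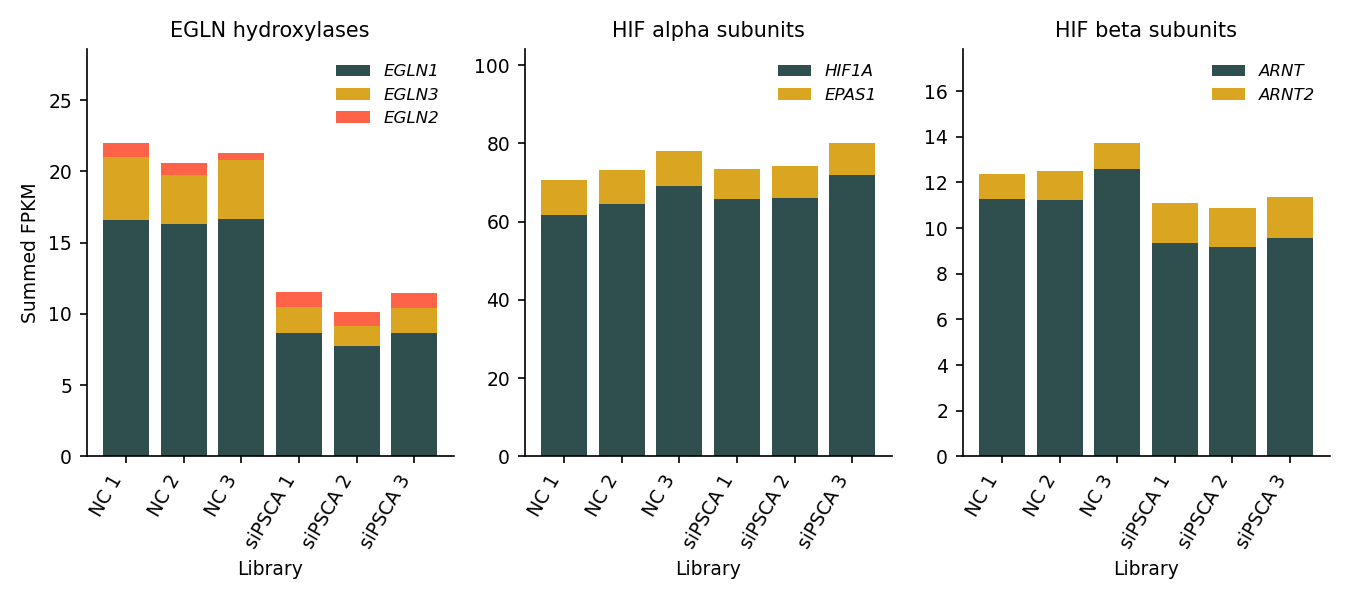
Summed FPKM of the EGLN hydroxylases, the HIF alpha subunits and the HIF beta subunits in each library, stacked by gene, with each axis starting at 0. The EGLN sum is 20.6 to 21.97 in NC and 10.1 to 11.55 in siPSCA, whereas the alpha sums of the groups overlap. Reads on shared exons of EGLN2 may be missing from the EGLN sum.

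The summed FPKM of the 3 EGLN genes went from 21.3 ± 0.698 in NC to 11.1 ± 0.795 in siPSCA, with no overlap (exact permutation test, two-sided p = 0.1). This sum and all shares of it may lack reads on the exons that EGLN2 shares with RAB4B-EGLN2. EGLN1 supplied 77.7% ± 1.90 of that sum in NC and 75.6% ± 0.819 in siPSCA, and these shares overlapped (exact p = 0.2). The share of EGLN3 was 18.6% ± 1.79 and 15.0% ± 0.877 (exact p = 0.1), and that of EGLN2, with its uncertain level, was 3.75% ± 1.00 and 9.44% ± 0.0928 (exact p = 0.1). EGLN1 thus had the highest counted FPKM of the 3 EGLN genes in all 6 libraries. Its rank against EGLN2 is not settled, because the level of EGLN2 is uncertain. Several ratios were formed after the values had been seen and carry no test. EGLN1 and EGLN3 together stood at 0.297, 0.269 and 0.266 of the summed alpha FPKM in NC and at 0.143, 0.124 and 0.130 in siPSCA. EGLN1 relative to VHL went from 0.833 ± 0.0422 to 0.408 ± 0.0295, and the alpha to beta ratio from 5.75 ± 0.0920 to 6.82 ± 0.217.

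HIF1AN (ENSG00000166135, chr10:100529072-100559998, plus strand, 13950 exonic bases), the asparaginyl hydroxylase, varied little within each group. Its FPKM was 12.97, 13.07 and 13.17 in NC and 12.25, 12.76 and 12.69 in siPSCA. The groups did not overlap, yet the means of 13.07 ± 0.101 and 12.57 ± 0.276 gave a fold change of only -0.05 (SE 0.05, 95% interval -0.16 to 0.06, adjusted p = 0.363 from limma), and the sign turned with the GC and length trend removed (0.08, adjusted p = 0.144). NDUFB8, a subunit of respiratory complex I on the opposite strand, shares 325 exonic bases with HIF1AN and was at 3.46 ± 0.232 and 3.76 ± 0.488 (0.09, adjusted p = 0.444 from limma). Only 1030 of the 1999 exonic bases of NDUFB8 are free of other genes, so reads may be missing from its level.

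VHL (ENSG00000134086, chr3:10141008-10152220, plus strand, 4213 exonic bases) was measured at 19.4, 20.8 and 19.4 in NC and at 20.5, 20.7 and 20.2 in siPSCA. The siPSCA values fell inside the NC range. With means of 19.9 ± 0.814 and 20.5 ± 0.221, the fold change was 0.04 (SE 0.05, 95% interval -0.08 to 0.16, adjusted p = 0.508 from limma), and with library medians made equal it was -0.01 (adjusted p = 0.899).

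**Figure D3:**
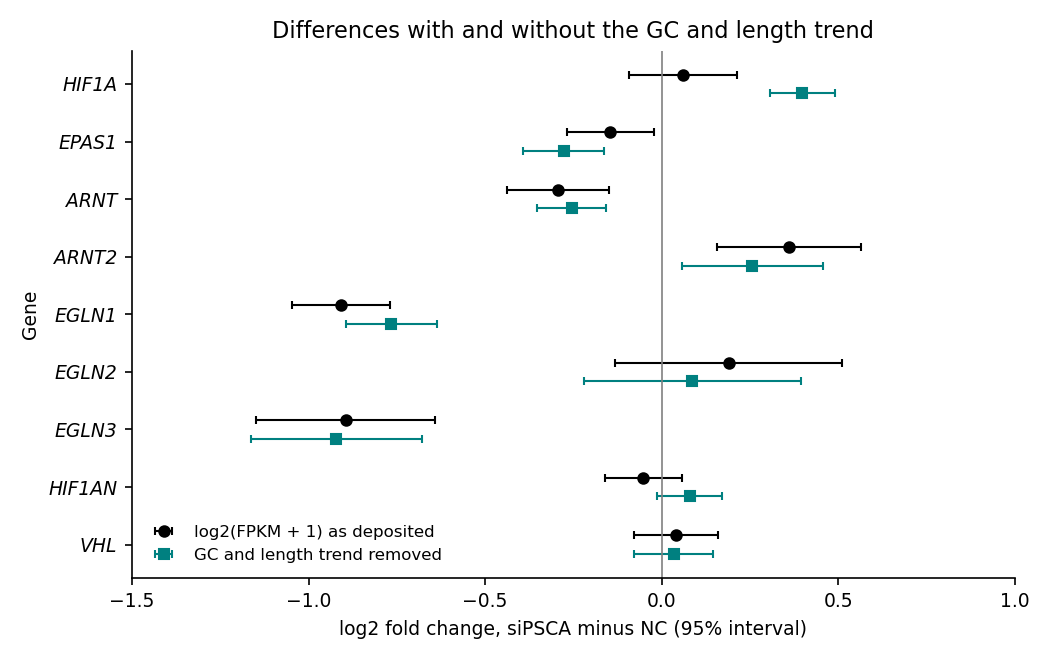
Fold change of each member (siPSCA minus NC, log2 scale) with its 95% interval, from the values as deposited (black circles) and with the GC and length trend removed (teal squares). EGLN1 lies at -0.91 and -0.77 and EGLN3 at -0.89 and -0.92, while HIF1A moves from 0.06 to 0.40.

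With the GC and length trend removed, 6 of the tested members passed, HIF1A higher and EPAS1 lower in addition to the 4 above, beside 39.6% of 13792 genes. Without NC 3, 4 members and 7425 genes passed. In order of level per length, NC ran HIF1A, VHL, EGLN1, HIF1AN, ARNT, EPAS1, EGLN3, ARNT2 and EGLN2, with no overlap between neighbours. In siPSCA, EGLN1 followed ARNT and EGLN3 followed ARNT2. There, the ranges of EGLN1 and EPAS1 and those of ARNT2 and EGLN3 overlapped, so their order is not settled by these libraries. In both groups the last place of EGLN2 carries the uncertainty of its level.

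The genes around the members were taken from lists of their known partners, and their counts of calls are again to be read against the 50.7% of all genes. Of 5 components of the VHL ubiquitin ligase, all tested, 2 rose and 1 fell, with a median fold change of 0.06 beside 0.01 over all genes tested. The adaptor ELOB, which binds VHL, rose from 62.6 ± 5.07 to 75.8 ± 5.09 (0.27, adjusted p = 0.0299 from limma), but its sign turned to -0.19 with the GC and length trend removed. CUL2, the scaffold of the ligase, fell from 13.7 ± 0.530 to 10.8 ± 0.613 (-0.32, adjusted p = 0.00678), and -0.07 remained without the trend. NEDD8, the ubiquitin-like activator of cullins, rose from 5.10 ± 0.589 to 6.72 ± 0.334 (0.34, adjusted p = 0.0168) and was the 1 component called in that alternative (0.49).

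Of 19 other regulators of HIF, such as coactivators, chaperones and further ligases, 17 were tested, 6 rose and 4 fell (median -0.04). With the GC and length trend removed 1 was higher and 5 were lower. The 4 genes named below had the largest absolute changes among those called, so none of those that fell is named. P4HTM, a membrane-bound prolyl hydroxylase that can also act on HIF alpha, rose from 4.12 ± 0.955 to 6.93 ± 0.211 (0.65, adjusted p = 0.0109 from limma) and kept its sign without the trend (0.26). The chaperone-linked ubiquitin ligase STUB1 (0.65, adjusted p = 0.0134) and the coactivator-binding CITED4 (0.52, adjusted p = 0.0314) rose too, but were at -0.06 and -0.57 without the trend. USP20, a deubiquitinase that acts against VHL, rose by 0.55 (adjusted p = 0.00892 from limma), with 0.09 left without the trend.

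Of the 12 other bHLH-PAS factors, the family to which HIF alpha and ARNT belong, 7 were tested, 2 rose and 2 fell (median -0.03). With the GC and length trend removed 4 were higher and 0 lower (median 0.20), namely AHRR and, with no call in the values as deposited, AHR, ARNTL and ARNTL2. AHRR, the repressor of the aryl hydrocarbon receptor that competes for ARNT, rose from 5.80 ± 0.570 to 12.0 ± 0.0848 (0.94, SE 0.07, adjusted p = 0.000670 from limma), and by 0.62 with the GC and length trend removed. SIM2, a developmental regulator, rose by 0.27 (adjusted p = 0.0233) with -0.04 under that alternative. The circadian factors CLOCK and NPAS2 were lower, CLOCK at -0.56 (adjusted p = 0.00363) and NPAS2 at -0.26 (adjusted p = 0.0428), and without the trend they stood at -0.14 and -0.21.

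Of 16 enzymes that make or use 2-oxoglutarate, succinate or fumarate, the co-substrate and inhibitors of the hydroxylases, 3 rose and 2 fell (median 0.10). OGDH, a subunit of the 2-oxoglutarate dehydrogenase complex, rose from 18.2 ± 0.484 to 23.8 ± 0.907 (0.37, adjusted p = 0.00264 from limma), and DLST of the same complex rose by 0.27 (adjusted p = 0.00664). Both calls were lost with the GC and length trend removed (0.05, adjusted p = 0.417 for OGDH, and 0.13, adjusted p = 0.0839 for DLST), while over the list 4 were then higher and 3 lower. D2HGDH, which clears D-2-hydroxyglutarate, rose by 0.61 (adjusted p = 0.0195), but its sign turned in that alternative (-0.10). GLUD1, which makes 2-oxoglutarate from glutamate, fell from 48.1 ± 1.98 to 32.5 ± 1.00 (-0.55, adjusted p = 0.000998 from limma) and stayed at -0.54 in it.

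**Figure D4:**
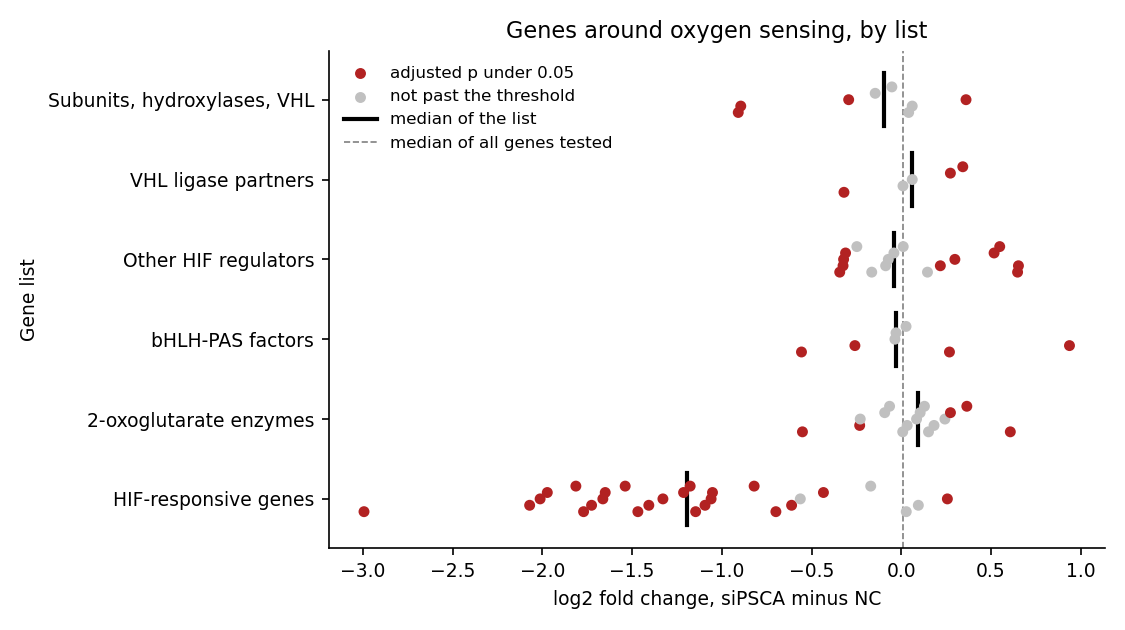
Fold change (siPSCA minus NC, log2 scale) of every tested gene in the members and the lists around them, red where the adjusted p is under 0.05 and grey where it is not. Thick bars are list medians and the dashed line is the median of all genes tested, 0.01. The HIF-responsive genes have a median of -1.20, while the other lists straddle 0.

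EGLN1 and EGLN3 moved in the same direction as most other HIF-responsive genes. Of 30 such genes, chosen with earlier results on hypoxia-responsive transcripts in these libraries known and so no independent evidence of direction, 28 were tested, 23 were lower and 1 was higher (median -1.20), beside 24.2% of all genes lower. With the GC and length trend removed 26 were lower and 1 higher (median -1.29). P4HA1, a collagen prolyl hydroxylase of the same enzyme class as the EGLN proteins, fell from 136.5 ± 11.01 to 16.2 ± 0.396 (-2.99, adjusted p = 1.45e-05 from limma). KDM3A, a histone demethylase that also depends on oxygen and 2-oxoglutarate, fell by 2.07 on the log2 scale (adjusted p = 9.42e-05). The stress-responsive NDRG1 went from 226 ± 6.85 to 55.3 ± 1.06 (-2.01) and hexokinase HK2 from 46.8 ± 1.43 to 11.2 ± 0.0618 (-1.97), both at an adjusted p of 1.45e-05. The 1 higher gene was TFRC, the transferrin receptor, at 36.6 ± 1.504 and 43.9 ± 0.795 (0.26, adjusted p = 0.00729 from limma).

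The genes whose profile over the 6 libraries was most like that of EGLN1, by Euclidean distance of centred log2(FPKM + 1) values among 11071 protein-coding genes, were PPP1R3B (distance 0.059), a regulatory subunit of protein phosphatase 1 in glycogen metabolism, BTAF1 (0.092), a TBP-associated factor, and NGLY1 (0.093), which removes N-glycans. PPP1R3B went from 6.62 to 2.98, BTAF1 from 28.4 to 14.6 and NGLY1 from 6.13 to 2.96. For ARNT2 they were SURF1 (0.056), a cytochrome c oxidase assembly factor, SETMAR (0.062) and LRRC42 (0.063). With 2 groups of 3, such a distance mostly reflects the size of the difference between the groups.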

How the data were processed

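The authors deposited 1 table of FPKM values (fragments scaled to gene length and library size) for 58735 genes in 6 libraries, with gene lengths and positions. Libraries were made with the NEBNext Ultra RNA kit. The submitters' processing notes name GRCh38, and all positions and lengths equalled those of GENCODE 29. The aligner and counting program are not given in the sources used here. FPKM times length gave whole reads for 100% of values (tolerance 0.01 of a read), 16099716 to 17302219 reads on genes per library.

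Values were analysed with R 4.3.3, limma 3.58.1 and Python 3.11.15. The linear model of limma (lmFit, eBayes with a mean-variance trend, two-sided) was fitted to log2(FPKM + 1) with group as the only term, on the 13796 genes whose mean FPKM was 1 or more, with Benjamini-Hochberg adjustment. EGLN2 and PSCA were read from a fit to all 34391 genes that had a read. Sums, shares and single levels were compared by exact two-sided permutation tests. GC content was taken from GENCODE transcripts for 99.97% of tested genes, and the trend was removed per library by loess. Of these steps, only the linear model on log2(FPKM + 1) was run on simulated reads, which held no trend on GC content.

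Members and lists were chosen with earlier results of these data known. Named genes are the members, PSCA, genes overlapping a member that have a read (RNU6-1309P, MIR5572, AC016705.1, AC108451.1 and AL133352.1 had 0 to 3 reads per library), up to 4 called genes of largest fold change with non-overlapping groups per list, and the 3 nearest profiles of EGLN1 and ARNT2. TFRC, AHR, ARNTL, ARNTL2, RAB4B-EGLN2, HIF3A and the single cell type markers were named after their values were seen.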

Additional observations from a re-analysis of the deposited data

How the results depend on the processing

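Values were recomputed with a pseudocount of 0.1, no expression minimum, equal library medians, limma-voom on recovered reads, the GC and length trend removed, a replicate block, and each library left out. EGLN1, EGLN3 and ARNT kept their direction and passed under all 12, whereas HIF1A and EPAS1 passed only under those named beside them and ARNT2 was lost without siPSCA 1 or siPSCA 3. Members called numbered 4 with a pseudocount of 0.1, with no minimum and with the replicate block, 5 with equal medians or limma-voom, 6 with the trend removed, and 3 to 4 with a library left out. Over all genes, leaving out a library gave 4627 (without siPSCA 1) to 7425 (without NC 3) calls in place of 7001, and the cause was not tested. The direction turned for HIF1AN with the trend removed (0.0799), and the cause was not tested. For VHL the direction turned with equal medians (-0.0097), a step that shifts every gene of a library by the same amount. Neither of them was called. Equal medians moved the median fold change of all genes from 0.01 to -0.04. Same-numbered libraries were at most weakly alike in their deviations from the group mean (correlations 0.096, 0.013 and 0.134). NC 1 and NC 3 correlated best with the siPSCA library of their own number, but NC 2 did so with siPSCA 1. Whether the numbers mark pairs is therefore not settled. The replicate block gave 6725 calls, 6355 of them shared with the fit without it, and 4 members. With 3 libraries a group the exact tests could not fall below p = 0.1. EGLN2 rests on the fewest reads of the members, 63 to 131.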
